A study of Bos taurus with 15 samples.

Results

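Fatty acid synthesis from acetyl-CoA was described through 7 genes, chosen by name from the 13896 genes of the series, namely ACLY, ACSS2, ACSS1, ACACA, ACACB, FASN and THRSP. All 7 were present in the 6 comparison tables. Total RNA of subcutaneous adipose tissue, taken at the dewlap of primiparous Prim Holstein cows after a fast, was sequenced after depletion of ribosomal RNA, in 15 libraries that form 5 groups of 3. At -4 wkpp (weeks peripartum), 1 month before calving, the cows had not yet begun the diets. The other groups were cows on a low energy (LE) diet at 1 and 16 wkpp and cows on a high energy (HE) diet at 1 and 16 wkpp, each fed that diet from 1 month before calving. The study's methods give both the diets and the severity of the cows' negative energy balance, and the groups are named here by the diet, as in the labels. Only the groups after calving were lactating, so calving, lactation and diet cannot be told apart in the comparisons with -4 wkpp. By the study's methods the sequenced cows were those with the more extreme energy balance at 1 wkpp, and each cow was biopsied at every time point. Which libraries are of the same cow is not given in the labels, so comparisons between time points were fitted as if the libraries were independent, and p-values measure only the spread between these libraries.

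In ruminants, adipose tissue is a main site of fatty acid synthesis, and acetate from the rumen is its main carbon source. ACSS2 joins acetate to coenzyme A in the cytosol and nucleus, ACSS1 does so in mitochondria, and ACLY makes cytosolic acetyl-CoA from citrate. ACACA carboxylates acetyl-CoA to malonyl-CoA for synthesis, ACACB makes malonyl-CoA at the mitochondrial membrane, where it restrains fatty acid oxidation, and FASN builds palmitate from both units. THRSP is a small protein of lipogenic tissues that is induced together with these enzymes.

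Whole reads of each library were recovered from the mean normalised counts of the deposited tables, so values are given per library, and the 3 libraries of a group are listed from the largest to the smallest size factor. Exonic reads on genes, in mega reads (M), numbered 7.82 to 13.6 M per library at -4 wkpp, 11.0 to 13.6 M in LE 1 wkpp and 11.8 to 14.8 M in LE 16 wkpp, against 2.03 to 6.99 M in HE 1 wkpp and 2.82 to 7.50 M in HE 16 wkpp, where 2 of 3 libraries in each group held less than 3 M. Adipocyte markers (8 of 10 listed genes measured) summed to 68171 to 70846 normalised counts at -4 wkpp, 73098 to 88868 in LE 1 wkpp, 44112 to 50951 in LE 16 wkpp, 19476 to 57464 in HE 1 wkpp and 10870.3 to 42364 in HE 16 wkpp. Those of fibroblasts (4 of 6) summed to 62259.7 to 74210.2, 34796 to 54038, 68692 to 77623, 6787 to 14796 and 10033 to 23668, and those of the lymph node (6 of 6) to 3167 to 3945, 2392 to 6200.1, 2866 to 4489, 271 to 749.7 and 162 to 586, in the same order of groups. The HE libraries were thus below all others in exonic reads and in the fibroblast and lymph node sums, and the part of the exonic reads in the results was not tested. Macrophage markers (5 of 6) summed to 4997 to 7135 at -4 wkpp, 7618 to 11787 in LE 1 wkpp, 10496 to 13768 in LE 16 wkpp, 2019 to 7012 in HE 1 wkpp and 1979 to 2279 in HE 16 wkpp, and endothelial markers (6 of 6) to 19804 to 24680.3, 30555 to 37768, 23034 to 26516, 30025 to 64607 and 24395 to 35047. Against -4 wkpp, the adipocyte sum was lower in HE 1 wkpp and higher in LE 1 wkpp, and the fibroblast sum was lower in both, all without overlap. The adipocyte markers did not move together. In LE 1 wkpp FABP4 (mean 44562 against 20420 at -4 wkpp), PLIN1 and LIPE were higher without overlap. LPL (2899 against 20563), CIDEC, LEP and CIDEA were lower there without overlap, and PPARG overlapped. In HE 1 wkpp LIPE was higher than at -4 wkpp (6861 against 3512). PLIN1, LPL, CIDEC, LEP and CIDEA were lower, and FABP4 and PPARG overlapped. The macrophage and endothelial sums were higher in LE 1 wkpp than at -4 wkpp without overlap, as was the endothelial sum in HE 1 wkpp, and the macrophage sum was lower in HE 16 wkpp than in LE 16 wkpp. The part of these sums in the results was not tested. Keratinocyte (6 of 8) and mammary epithelial markers (7 of 8) stayed at or below 797 and 620.4. DSP and KRT8 had the highest means of these lists in every group. DSP had a mean of 512 at -4 wkpp and 204 in HE 1 wkpp. KRT5 and KRT14, with at most 35 reads in any library, had their highest means in HE 1 wkpp. These were 34.7 and 37.4, against 11.7 and 6.10 at -4 wkpp and 0.81 and 0 in LE 1 wkpp. In bulk tissue, fewer cells of a type and less RNA per cell cannot be told apart.

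Together, the 7 genes took 9.15 to 13.8 of every 1000 exonic reads at -4 wkpp. They took 0.711 to 1.22 in LE 1 wkpp, 0.731 to 3.30 in LE 16 wkpp, 0.894 to 1.40 in HE 1 wkpp and 0.737 to 4.04 in HE 16 wkpp. Each library at -4 wkpp was above every library after calving. Within the groups after calving, the widest ranges were at 16 wkpp.

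**Figure D1:**
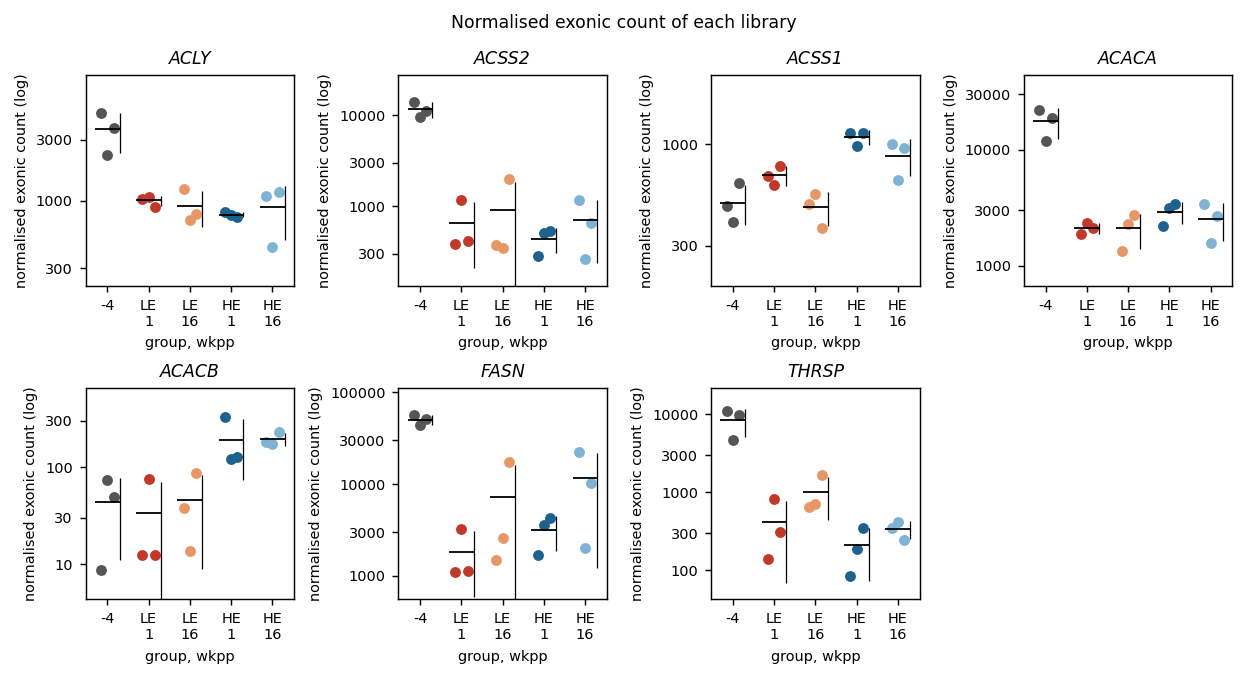
Normalised exonic count (log axis) of the 7 genes in each of the 15 libraries, by group. Points are libraries, horizontal lines the means and vertical lines 1 SD (n = 3), ending at the axis where they reach below it. ACLY, ACSS2, ACACA, FASN and THRSP stand highest at -4 wkpp with no overlap, whereas ACSS1 and ACACB do not.

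The first question was how the genes changed from before calving to 1 wkpp. In HE, ACSS2, ACACA, FASN and THRSP fell, by between 5.99 and 54.4 times in the exon analysis. Of the 6 members tested in both analyses, these 4 were called (limma, adjusted p below 0.01 on exonic and on whole gene reads with the same sign), whereas 1.82% of all 10417 genes tested were called. The median log2 fold change of -4 wkpp over HE 1 wkpp was 3.33 for the 6 members and 0.04 for all genes tested. On exonic reads alone, 6 of the 7 members were past the threshold, beside 16.5% of all 10525 genes, and the libraries of the groups did not overlap for any of the 7 members, 5 higher and 2 lower at -4 wkpp, beside 46.8% of all genes in either direction. In LE, ACACA and FASN fell and were called, beside 0.0378% of all 10594 genes tested, which is 4 genes in all. The other 2 were GPAM, which begins triacylglycerol assembly, and CIDEA, a lipid droplet protein. On exonic reads alone, 4 members were past the threshold in LE, beside 0.494% of all 10727 genes, and 5 members had no overlap between the groups, all higher at -4 wkpp, beside 19.7% of all genes in either direction. The median log2 fold change of -4 wkpp over LE 1 wkpp was 3.67 for the 6 members and -0.03 for all genes tested. The 2 comparisons share the 3 libraries at -4 wkpp.

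Among the genes of acetyl-CoA supply, ACSS2 had the largest log2 fold change in both comparisons. It had normalised exonic counts of 14109, 9516 and 11299 at -4 wkpp. The counts were 285, 505 and 528 in HE 1 wkpp and 386, 1177 and 412 in LE 1 wkpp. All libraries at 1 wkpp lay below all libraries at -4 wkpp, and 1 library of LE 1 wkpp was above the other libraries at 1 wkpp. At -4 wkpp ACSS2 was 28.6-fold higher than in HE 1 wkpp (log2 fold change 4.84 ± 0.28 (SE), adjusted p = 1.8e-05; limma), and the whole gene analysis gave 4.21 ± 0.26 (SE), adjusted p = 0.00295. Against LE 1 wkpp it was higher on exonic reads (log2 fold change 4.32 ± 0.42 (SE), adjusted p = 0.00409), while on whole gene reads the value of 3.88 ± 0.37 (SE), adjusted p = 0.0147, missed the threshold, so that ACSS2 was not called in LE.

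ACSS1, the mitochondrial counterpart, did not follow ACSS2. Its normalised exonic counts were 479, 395 and 627 at -4 wkpp, 1139, 979.7 and 1133 in HE 1 wkpp and 683, 615 and 771 in LE 1 wkpp. The HE libraries were all higher than those at -4 wkpp, whereas the LE libraries overlapped with them. In the exon analysis ACSS1 was 2.19-fold higher in HE 1 wkpp than at -4 wkpp (log2 fold change -1.13 ± 0.22 (SE), adjusted p = 0.00391), and against LE 1 wkpp the values were log2 fold change -0.50 ± 0.20 (SE), adjusted p = 0.3. On the whole gene, however, ACSS1 was listed with 0 to 5 reads per library, beside 253 to 1259 exonic reads, so it did not pass the filter on low counts there and could not be called in any comparison. The cause of this gap was not tested.

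ACLY, which draws acetyl-CoA from citrate, had normalised exonic counts of 4794, 2289.7 and 3710.3 at -4 wkpp, 817, 776 and 753 in HE 1 wkpp and 1043, 1079.5 and 906 in LE 1 wkpp. The groups did not overlap, but the libraries at -4 wkpp were spread over 2289.7 to 4794. At -4 wkpp it was 4.41-fold higher than in HE 1 wkpp (log2 fold change 2.14 ± 0.27 (SE), adjusted p = 0.000531) on exonic reads. Whole gene reads gave 1.90 ± 0.27 (SE), adjusted p = 0.0106, just above the threshold, so that ACLY was not called. Against LE 1 wkpp the values were log2 fold change 1.78 ± 0.26 (SE), adjusted p = 0.0146 on exonic reads and 1.56 ± 0.25 (SE), adjusted p = 0.05 on whole gene reads, neither past the threshold.

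The carboxylase step has 2 isoforms, each from its own gene. ACACA had normalised exonic counts of 22135, 11891 and 18677 at -4 wkpp, 2201, 3132 and 3374 in HE 1 wkpp and 1860.2, 2331 and 2127 in LE 1 wkpp, with no overlap between -4 and 1 wkpp. It was 5.99-fold higher at -4 wkpp than in HE 1 wkpp (log2 fold change 2.58 ± 0.27 (SE), adjusted p = 0.000208; whole gene 2.70 ± 0.24 (SE), adjusted p = 0.00516). It was 8.12-fold higher than in LE 1 wkpp (log2 fold change 3.02 ± 0.24 (SE), adjusted p = 0.00372; whole gene 2.73 ± 0.22 (SE), adjusted p = 0.00718).

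ACACB was low in every library before calving and in LE, with normalised exonic counts of 8.67, 73.6 and 49.7 at -4 wkpp and 12.5, 75.9 and 12.5 in LE 1 wkpp. In HE 1 wkpp it had 327, 122 and 126. All HE libraries were above all libraries of the other groups at these times, and the libraries at -4 wkpp overlapped with those of LE. The exonic log2 fold change -2.75 ± 0.72 (SE), adjusted p = 0.0167 for -4 wkpp over HE 1 wkpp missed the threshold, as did the whole gene value of -2.45 ± 0.74 (SE), adjusted p = 0.09. When 1 library was left out the exonic value ran from -3.53 to -1.66, the limits being without the second and without the first library at -4 wkpp. For -4 wkpp over LE 1 wkpp the exonic log2 fold change was 0.37 with a 95% interval of -1.79 to 2.52, too wide to show a change, and it was -0.34 to 1.40 when 1 library was left out, with the same 2 libraries at the limits. ACACA had 162 to 2553 exonic reads for each ACACB read at -4 wkpp, 30.7 to 171 in LE 1 wkpp and 6.74 to 26.9 in HE 1 wkpp. The ratio is of reads and not of transcripts, and it was lower in every HE library than in any other at these times. ACACB had 15 to 120 exonic reads per library at -4 wkpp, 19 to 135 in LE 1 wkpp and 34 to 312 in HE 1 wkpp. The ratio of 2553 rests on 15 ACACB reads.

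FASN, the synthase itself, had normalised exonic counts of 55911, 44254 and 50968 at -4 wkpp, with an SD of 11.6% of the mean. It had 1695, 3596 and 4249 in HE 1 wkpp and 1108, 3266 and 1119 in LE 1 wkpp. The lowest library at -4 wkpp was thus still far above the highest at 1 wkpp. FASN was 17.0-fold higher at -4 wkpp than in HE 1 wkpp (log2 fold change 4.09 ± 0.32 (SE), adjusted p = 7e-05; whole gene 4.00 ± 0.36 (SE), adjusted p = 0.00516) and 31.5-fold higher than in LE 1 wkpp (log2 fold change 4.98 ± 0.42 (SE), adjusted p = 0.00372; whole gene 4.89 ± 0.41 (SE), adjusted p = 0.00718).

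THRSP had normalised exonic counts of 10960.3, 4738 and 9887 at -4 wkpp, 84.8, 187 and 354 in HE 1 wkpp and 141, 820.5 and 308 in LE 1 wkpp. The groups at 1 wkpp were below -4 wkpp without overlap, and the reads in HE 1 wkpp were few, 69 to 96 per library. At -4 wkpp it was 54.4-fold higher than in HE 1 wkpp (log2 fold change 5.77 ± 0.48 (SE), adjusted p = 8.9e-05; whole gene 5.58 ± 0.50 (SE), adjusted p = 0.00516). Against LE 1 wkpp it was 24.5-fold higher on exonic reads (log2 fold change 4.61 ± 0.59 (SE), adjusted p = 0.00857), but with 4.52 ± 0.56 (SE), adjusted p = 0.0209, on whole gene reads it was not called. When 1 library was left out the exonic value against LE ran from 4.00, without the first library of LE 1 wkpp, to 5.29, without the second, and THRSP was called in the latter case.

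The calls for -4 over 1 wkpp depended on single libraries. Without any one of the 3 libraries at -4 wkpp no gene was called in either comparison, and without the second or the third library of HE 1 wkpp 1 member (ACSS2) and 0 members were called, respectively. The log2 fold changes themselves stayed on the same side when 1 library was left out, at 4.52 to 4.99 for ACSS2, 2.40 to 2.83 for ACACA, 3.72 to 4.34 for FASN and 5.03 to 6.16 for THRSP in HE, and at 2.83 to 3.29 for ACACA and 4.72 to 5.49 for FASN in LE. Without the first or the third library of LE 1 wkpp 0 members were called in that comparison, and without its second library 4 were. Without the 2 HE 1 wkpp libraries of less than 3 M exonic reads, a fit that takes the 1 library left to vary like the others called 0 members, with log2 fold changes of 5.30 for ACSS2, 2.92 for ACACA, 4.85 for FASN and 6.52 for THRSP. Scaling by total reads left 4 calls in HE and none in LE, where the log2 fold changes were 2.96 for ACACA and 4.92 for FASN.

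**Figure D2:**
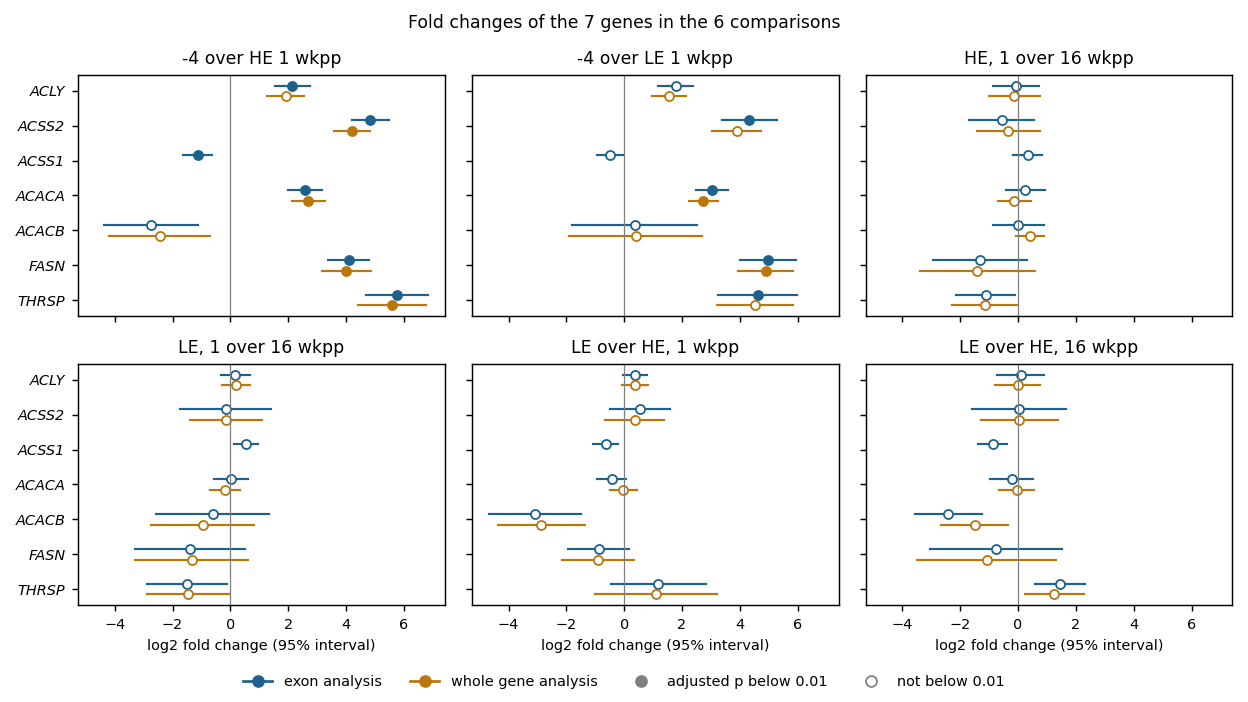
Log2 fold changes (limma, 95% intervals) of the 7 genes in the 6 comparisons, first group over second, on exonic (blue) and whole gene reads (orange). Filled points have an adjusted p below 0.01. Filled points occur only in the comparisons with -4 wkpp, and ACSS1 has no whole gene value.

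Since ribosomal depletion keeps unspliced RNA, whole gene minus exonic reads gave a second measure, taken here as the reads within introns. It is a difference of 2 separate countings and not a count of its own. For 363 genes it was negative in some library, and these were left out. Introns held 40.2 to 60.1% of the whole gene reads of a library. For 6 members this difference could be formed, and for ACSS1 it could not. On intronic reads ACACA fell between -4 and 1 wkpp in LE (2.55 ± 0.19 (SE) on the log2 scale, adjusted p = 0.00899; limma), and it was the only gene called of 10482, which is 0.00954%. In HE the values were 2.77 ± 0.21 (SE) with an adjusted p of 0.0251, and no gene was called there (0% of 10824 genes). ACSS2 had 3.23 ± 0.28 (SE) against HE (adjusted p = 0.0278) and 3.20 ± 0.33 (SE) against LE (adjusted p = 0.0198), neither called. ACLY had 0.95 ± 0.28 (SE) and 0.72 ± 0.25 (SE), respectively (adjusted p = 0.211 and 0.455). FASN had 3.31 ± 0.67 (SE) and 3.39 ± 0.49 (SE) (adjusted p = 0.105 and 0.0945). THRSP had 2.74 ± 0.69 (SE) and 3.59 ± 0.65 (SE) (adjusted p = 0.158 and 0.119), on 11 to 441 intronic reads per library. ACACB had -2.33 ± 0.84 (SE) and 0.49 ± 1.02 (SE) (adjusted p = 0.285 and 0.935), with values on opposite sides of 0 and neither called.

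The share of intronic reads differed between members and groups. It was 10.9 to 14.4% of the whole gene reads of ACLY at -4 wkpp, 17.8 to 23.0% in HE 1 wkpp and 20.6 to 23.2% in LE 1 wkpp. For ACSS2 it was 23.1 to 31.2%, 43.7 to 54.4% and 37.4 to 49.8%. For both genes all 3 libraries at -4 wkpp were below all libraries at 1 wkpp, whereas at 16 wkpp the shares overlapped with those at -4 wkpp in HE for ACLY (lowest library 11.4%), and in both groups for ACSS2 (28.4 to 45.2% in HE and 22.7 to 54.6% in LE). For ACACA, the shares of 48.0 to 54.2%, 35.7 to 50.2% and 54.1 to 62.1% did not follow that order. Most reads of FASN and THRSP were exonic. The intronic share of FASN was 0.873 to 1.96% at -4 wkpp, 1.19 to 3.34% in HE 1 wkpp and 2.60 to 4.85% in LE 1 wkpp, higher than at -4 wkpp without overlap in LE only. That of THRSP was 1.92 to 2.56%, 11.1 to 24.2% and 1.82 to 10.3%, higher without overlap in HE only, where it rests on 12 to 22 intronic reads per library. Against HE 1 wkpp, 3 of the 6 members (ACLY, ACSS2 and THRSP) were thus lower at -4 wkpp without overlap, beside 7.39% of 10347 genes in that direction and 28.6% in either. Against LE 1 wkpp 3 (ACLY, ACSS2 and FASN) were, beside 2.54% of 10538 genes in that direction and 5.1% in either. These shares were not tested.

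**Figure D3:**
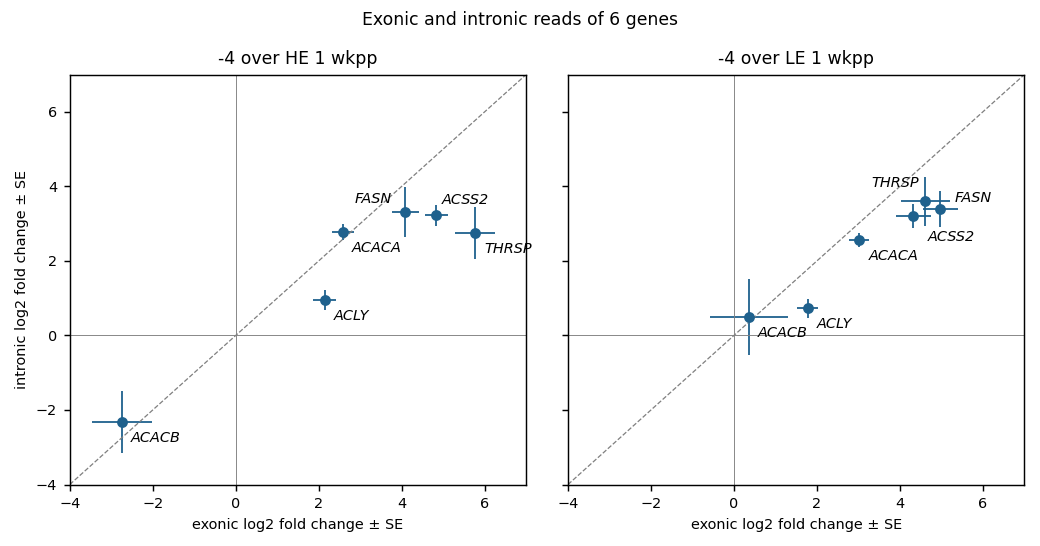
Intronic against exonic log2 fold change (± SE) of 6 members, -4 wkpp over HE 1 wkpp (left) and over LE 1 wkpp (right). The dashed line marks equal values. ACLY, ACSS2, FASN and THRSP lie below it in both, ACACA lies close to it, and ACACB lies on opposite sides of 0 in the 2 comparisons.

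The second question was whether the genes differed between 1 and 16 wkpp. No member was called for HE 1 over 16 wkpp or for LE 1 over 16 wkpp, where 0% of the 9800 and 0% of the 10494 genes tested were called (limma), and on exonic reads alone no gene was either. By unadjusted p below 0.05 in both analyses, 1 member, THRSP, passed in each comparison, beside 8.01% of all genes tested in HE and 4.57% in LE. No member was without overlap between the groups in HE, beside 20% of all genes, and 1 was in LE, beside 12.1%.

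FASN had normalised exonic counts of 22598, 2008 and 10177 in HE 16 wkpp and 1507, 2571 and 17589.8 in LE 16 wkpp. In HE the first and the last of these libraries, and in LE the last, were above every library at 1 wkpp, and the rest were within the range at 1 wkpp. The mean was 3179.9 ± 1327 at 1 wkpp and 11594 ± 10368 at 16 wkpp in HE, and 1831 ± 1243 and 7222 ± 8994 in LE (SD, n = 3), and in both the difference was smaller than the SD at 16 wkpp. For 1 over 16 wkpp the log2 fold change was -1.32, with a 95% interval of -2.96 to 0.32, in HE and -1.40, with an interval of -3.30 to 0.50, in LE. When 1 library was left out these values ran in HE from -2.31, without the second library of 16 wkpp, to -0.62, without the first, and in LE from -2.10, without the first library of 16 wkpp, to -0.32, without the third. Even the highest library at 16 wkpp was below the lowest at -4 wkpp.

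THRSP had 354, 421 and 247 in HE 16 wkpp and 652, 708 and 1663 in LE 16 wkpp. Its log2 fold change for 1 over 16 wkpp was -1.13 with a 95% interval of -2.14 to -0.11 in HE and -1.50 with an interval of -2.88 to -0.12 in LE, with adjusted p of 0.333 and 0.681 (limma). With 1 library left out it was -1.56 to -0.42 in HE and -2.18 to -0.89 in LE. ACSS2 had 1184, 263 and 655 in HE 16 wkpp and 373, 349 and 2003 in LE 16 wkpp, with 1 library in each group above the others. Its log2 fold change for 1 over 16 wkpp was -0.56 (-1.68 to 0.56) and -0.17 (-1.76 to 1.42), respectively.

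ACACA had 3371, 1582 and 2673 in HE 16 wkpp and 1335, 2286 and 2709 in LE 16 wkpp, with intervals of the log2 fold change for 1 over 16 wkpp of -0.43 to 0.94 and -0.57 to 0.62. ACLY had 1093, 436 and 1164 and 1234, 716 and 788, with intervals of -0.87 to 0.71 and -0.34 to 0.66. ACSS1 had 995, 653 and 957 in HE 16 wkpp and 492, 556 and 371 in LE 16 wkpp, and in LE every library was below those at 1 wkpp (log2 fold change of 1 over 16 wkpp 0.53 ± 0.19 (SE), adjusted p = 0.681; limma). ACACB had 179.8, 173 and 231 in HE 16 wkpp and 38.1, 13.5 and 86.2 in LE 16 wkpp, close to the values at 1 wkpp in HE (interval -0.88 to 0.90), and spread as widely as these in LE (interval -2.56 to 1.34).

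Over all 5 groups, ACLY, ACSS2, ACACA, FASN and THRSP thus had their highest mean at -4 wkpp, without overlap with the next group, and the 4 groups below it overlapped from each to the next. For ACSS1 the order of means was HE 1 wkpp, HE 16 wkpp, LE 1 wkpp, -4 wkpp and LE 16 wkpp, with overlap of each with the next. For ACACB it was HE 16 wkpp, HE 1 wkpp, LE 16 wkpp, -4 wkpp and LE 1 wkpp, and a gap lay only between the HE groups and the rest.

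The third question was whether the genes differed between cows on the LE and the HE diet. At 1 wkpp no member was called for LE over HE, beside 0% of 10368 genes (limma), while on exonic reads alone no member was called beside 2.4% of 10480 genes. For 3 of 7 members the libraries did not overlap, ACLY higher in LE and ACSS1 and ACACB lower, beside 39.7% of all genes in either direction. At 16 wkpp no member was called beside 3.66% of 10158 genes, and on exonic reads no member was past the threshold beside 10.4% of 10268 genes. For 3 of 7 members there was again no overlap, THRSP higher in LE and ACSS1 and ACACB lower, beside 44.1% of all genes. By unadjusted p below 0.05 in both analyses, 1 of the 6 members tested (ACACB) passed at 1 wkpp, beside 18.3% of all genes, and 2 (ACACB and THRSP) passed at 16 wkpp, beside 26.2%. On intronic reads 0.86% of 9765 genes were called at 16 wkpp, none of them a member.

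ACACB came nearest to the threshold. Its exonic log2 fold change of LE over HE was -3.09 ± 0.71 (SE) at 1 wkpp (adjusted p = 0.0221; limma), or 8.50-fold higher in HE. At 16 wkpp it was -2.42 ± 0.51 (adjusted p = 0.0103; limma), or 5.35-fold higher in HE. The whole gene values were -2.86 and -1.50, with adjusted p of 0.082 and 0.0867 (limma). On intronic reads they were -2.86 ± 0.74 (SE) and -1.17 ± 0.52 (SE), with adjusted p of 0.349 and 0.279 (limma). When 1 library was left out the exonic value ran at 1 wkpp from -3.95, without the second LE library, to -2.37, without the first HE library, and at 16 wkpp from -3.00, without the third LE library, to -1.77, without the second LE library. ACSS1 was 1.56-fold higher in HE at 1 wkpp (log2 fold change -0.64 ± 0.19 (SE), adjusted p = 0.0545) and 1.84-fold at 16 wkpp (log2 fold change -0.88 ± 0.22 (SE), adjusted p = 0.0202) on exonic reads.

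Both genes are also expressed in muscle. The 9 of 10 listed genes measured summed to 1187 to 4119.7 normalised counts in HE 1 wkpp and 1710.3 to 3821 in HE 16 wkpp, against 97.7 to 364 at -4 wkpp, 113 to 322 in LE 1 wkpp and 242 to 347 in LE 16 wkpp. The rise of this sum in HE rests on TNNT3, a fast muscle troponin, with 1175 to 3957 in HE 1 wkpp and 1651 to 3799 in HE 16 wkpp, which was the only measured marker above every other group in both HE groups without overlap. The other 8 markers had at most 35 reads in any library. The means of MYH7, a slow myosin heavy chain, were 15.8 at -4 wkpp, 7.32 in LE 1 wkpp, 4.05 in LE 16 wkpp, 26.6 in HE 1 wkpp and 3.12 in HE 16 wkpp, and those of MYH1, a fast one, were 7.21, 0, 2.04, 33.5 and 2.54. CKM, the muscle creatine kinase, had at most 5 reads in any library. MYLPF was at 0 in every library of -4 wkpp and HE 16 wkpp, and MYH1 in every library of LE 1 wkpp. The part of these markers in the values of ACACB and ACSS1 was not tested.

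THRSP was 2.73-fold higher in LE than in HE at 16 wkpp (log2 fold change 1.45 ± 0.38 (SE), adjusted p = 0.0242), without passing the threshold, and at 1 wkpp the interval of the log2 fold change was -0.47 to 2.83. For FASN the log2 fold change of LE over HE was -0.89 with an interval of -1.94 to 0.16 at 1 wkpp and -0.76 with -3.04 to 1.51 at 16 wkpp. For ACSS2 the intervals were -0.50 to 1.57 and -1.61 to 1.67, for ACACA -0.93 to 0.07 and -0.97 to 0.53, and for ACLY -0.05 to 0.80 and -0.74 to 0.91. Differences between LE and HE within these bounds were not detectable with 3 libraries a group.

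The change from 1 to 16 wkpp was also compared between LE and HE, as an interaction over the 12 libraries after calving. No member was called and 0% of 10252 genes were (limma), and no member passed an unadjusted p below 0.05 in both analyses, beside 2.82% of all genes. The interaction on the log2 scale was -0.09 ± 1.25 (SE) for FASN, 0.49 ± 0.99 for ACSS2 and -0.70 ± 0.96 for ACACB.

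Genes around the pathway were taken from a list of 30, of which 28 were tested in both analyses. From -4 wkpp to HE 1 wkpp, 7 of the 28 fell and 0 rose, and 21 did not pass (limma, same rule), beside 1.82% of all genes called. In the exon analysis alone 12 fell and 0 rose, beside 16.5% of all genes past the threshold. The calls, but not the direction, depended on single libraries. None of the 7 was called without any one library at -4 wkpp, without the second or the third library of HE 1 wkpp, without the low-count filter, or without the HE libraries under 3 M exonic reads. Without the first library of HE 1 wkpp 2 of the 7, MPC1 and PGD, were still called, and with scaling by total reads 5 were, without AACS and ELOVL6. The exonic log2 fold changes under all these alternatives stayed at 2.25 to 2.58 for SLC25A1, 2.16 to 2.38 for MPC1, 2.77 to 3.01 for SLC16A1, 2.90 to 3.26 for MID1IP1, 1.75 to 2.04 for AACS, 4.75 to 5.23 for ELOVL6 and 2.04 to 2.33 for PGD. SLC25A1, which exports citrate from mitochondria for ACLY, was at 2014 ± 326 (SD, n = 3) normalised counts at -4 wkpp and 409 ± 129 in HE 1 wkpp (log2 fold change 2.39 ± 0.25 (SE), adjusted p = 0.000214 on exonic reads, and log2 fold change 2.29 on whole gene reads). MPC1, a subunit of the mitochondrial pyruvate carrier, fell from 1294 ± 176 to 266 ± 47.2 (log2 fold change 2.29 ± 0.23 (SE), adjusted p = 0.000194 on exonic reads, and log2 fold change 1.91 on whole gene reads), and SLC16A1, a carrier of monocarboxylates, from 1674 ± 258 to 220.2 ± 16.1 (log2 fold change 2.90 ± 0.24 (SE), adjusted p = 8.4e-05 on exonic reads, and log2 fold change 2.20 on whole gene reads). MID1IP1, which promotes the polymerisation of acetyl-CoA carboxylase and is a relative of THRSP, fell from 1748 ± 263 to 214 ± 76.3 (log2 fold change 3.11 ± 0.28 (SE), adjusted p = 0.000116 on exonic reads, and log2 fold change 3.02 on whole gene reads). ELOVL6, which elongates palmitate, fell from 5368 ± 1727 to 177 ± 35.4 (log2 fold change 4.96 ± 0.32 (SE), adjusted p = 3e-05 on exonic reads, and log2 fold change 3.18 on whole gene reads). PGD, which supplies NADPH, and AACS, a cytosolic acetoacetyl-CoA synthetase, were the remaining ones, with log2 fold changes of 2.20 and 1.87 on exonic reads and 2.02 and 1.64 on whole gene reads. For ELOVL6 the fold was 31.1 on exonic but 9.06 on whole gene reads (adjusted p = 0.00906; limma), and for SLC16A1 it was 7.45 and 4.60.

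From -4 wkpp to LE 1 wkpp, 0 of the 28 genes were called, beside 0.0378% of all genes. On exonic reads alone SLC25A1, MID1IP1, AACS and ELOVL6 fell, with log2 fold changes of 2.33, 2.67, 1.65 and 3.11. These 4 and CPT1A stand beside 0.494% of all genes past the threshold on exonic reads. CPT1A, which takes fatty acids into oxidation and is inhibited by malonyl-CoA, went the other way, from 507, 771 and 631 to 2491, 2751 and 2149 normalised counts (log2 fold change -1.96 ± 0.19 (SE), adjusted p = 0.00409 on exonic reads), whereas on whole gene reads its adjusted p was 0.0516. In HE 1 wkpp CPT1A had 2679.5, 1156 and 1214, with 1 library near those of LE. SREBF1, a transcription factor of lipogenic genes, had 2611, 3769 and 2751 at -4 wkpp, 2071, 1729 and 3001 in HE 1 wkpp and 1016, 1352 and 1263 in LE 1 wkpp, and it was called in neither comparison.

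Between 1 and 16 wkpp 0 of the 28 genes were called in HE or in LE, and 0 in the interaction. Between LE and HE, 0 were called at 1 wkpp and 1 at 16 wkpp, a share near the 3.66% of all genes called there. This was MLXIPL, the carbohydrate-responsive factor ChREBP, with 77.2, 92.8 and 88.1 in LE 16 wkpp and 366, 364 and 250.2 in HE 16 wkpp, without overlap (log2 fold change -1.94 ± 0.21 (SE), adjusted p = 0.000878; whole gene -1.56 ± 0.20 (SE), adjusted p = 0.00443). MLXIPL was not called without any one of the 6 libraries, nor without the HE libraries under 3 M exonic reads, while its log2 fold change stayed at -2.10 to -1.82. HLCS had no entry, and ACOT12 was too low for the exon analysis.

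**Figure D4:**
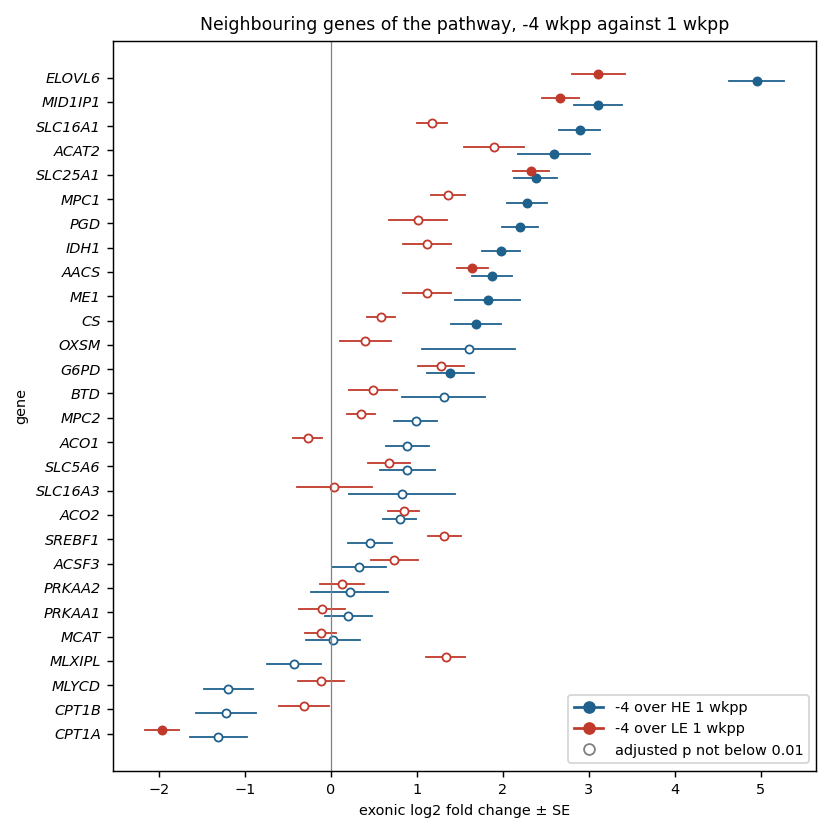
Exonic log2 fold changes (± SE) of 28 genes around the pathway, -4 wkpp over HE 1 wkpp (blue) and over LE 1 wkpp (red), ordered by the former. Filled points have an adjusted p below 0.01 on exonic reads. CPT1A is the only filled point below 0, and ELOVL6 has the highest value in both comparisons.

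The genes whose pattern was most like that of FASN over the 15 libraries, among 8022 genes with a mean normalised exonic count of at least 100, were GPAM, SLC25A1, SFXN2, GLYAT and GPD1, members left out. Their Pearson correlations with FASN on the log2 scale were 0.92, 0.90, 0.90, 0.89 and 0.88. Among the members, ACSS2 had 0.91, ACACA 0.86, THRSP 0.79, ACLY 0.73, ACACB 0.06 and ACSS1 -0.34. The libraries at -4 wkpp stood apart. Over the 12 libraries after calving the correlations were 0.83 for GPAM, 0.76 for SLC25A1, 0.73 for GLYAT, 0.72 for SFXN2 and 0.70 for GPD1. Among the members they were 0.80 for ACSS2, 0.69 for ACACA, 0.52 for ACACB, 0.38 for THRSP, 0.15 for ACLY and 0.01 for ACSS1. These are descriptions over libraries that share cows and groups, and no test was made of them.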

How the data were processed

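RNA of 15 libraries was sequenced by the authors on single reads. Per the study's methods and the submitters' processing notes, reads were demultiplexed with bcl2fastq 2.15.0, trimmed with Cutadapt 1.3, aligned to bosTau8 with TopHat2 and counted with HTSeq (intersection-nonempty mode), on exons and on whole genes. The authors deposited 6 tables, 1 per comparison, of 13896 genes and 92 spike-ins. The values used here are the mean normalised counts of the deposited tables, over the 6 libraries of a comparison, which the authors made by dividing counts by DESeq2 size factors. The fold changes, standard errors and p-values in the same tables are the authors' own results and were not used.

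Each gene's 6 means, printed to 15 digits, were solved for the 15 whole read numbers behind them. The weight of 1 read in each library was learned from genes with reads in 1 group, and lattice reduction (LLL, sympy 1.14.0) gave the numbers, kept if all 6 means were met within the printed digits. This recovered 13891 genes on exons and 13890 on whole genes, with a largest residual of 5.1e-15. The weights differed from size factors computed from the recovered reads by at most 0.0419% and 0.0722%. Exonic and whole gene libraries were matched within groups by correlation of their deviations (at least 0.724 for matches, at most 0.145 otherwise). Libraries could not be tied to single samples of a group. All tests were run on recovered reads, since no counts per library were used here.

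Comparisons used limma 3.58.1 (voom weights, 0.5 reads added) in R 4.3.3 on median-of-ratios size factors, for genes with a mean normalised count of at least 10, with Benjamini-Hochberg adjusted p below 0.01 in both analyses and the same sign. Levels are counts scaled over all 15 libraries. The members, the lists and the rule for the genes named (7 members, 30 neighbours, the 5 genes most correlated with FASN) were chosen with earlier results of these data known. The number of exonic reads per library is given with the results, and counts carry counting error besides the spread between cows. The scripts were tested on simulated data. Alternatives were another test, pseudocount, filter, scaling, analysis, threshold or fit, and leaving out each library. Coordinates were not used, as the annotation at hand is of another assembly. Figures used Python 3.11.15 and matplotlib 3.10.9.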

Additional observations from a re-analysis of the deposited data

Results flagged for a closer look

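Synthetic spike-in RNAs, which enter no comparison, gave more reads in HE than in the libraries at -4 wkpp. The recovered spike-ins had a median of 177 reads per 1000 exonic reads in HE 1 wkpp (range 37.4 to 304) and of 114 in HE 16 wkpp (range 47.8 to 139), against 6.21 to 19.0 at -4 wkpp, 6.54 to 20.9 in LE 1 wkpp and 2.34 to 7.02 in LE 16 wkpp. Of the 92 spike-ins 5 were not recovered on exons, and their reads are not in these values. The HE libraries also had the fewest exonic reads, and the part of either in the values of the 7 genes was not tested.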

How the results depend on the processing

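The counts of members called were recomputed under 14 or 15 alternatives for each comparison and 20 for the interaction. For HE 1 over 16 wkpp, LE 1 over 16 wkpp, LE over HE at 1 wkpp and at 16 wkpp, and the interaction, the count was 0 under every alternative run. For -4 wkpp over HE 1 wkpp (4 members), the count was 4 to 6 under the other settings, 0 to 4 when 1 library was left out, and 0 without the HE libraries under 3 M exonic reads, an alternative chosen after seeing the data. For -4 wkpp over LE 1 wkpp (2 members), it was 4 on exonic reads alone, 4 at a threshold of 0.05, 0 with scaling by total reads and 0 to 4 when 1 library was left out. Fewer libraries were fitted there, and otherwise the cause was not tested. Of the recomputed log2 fold changes of single genes called, 67 kept the call, 99 kept the direction but not the call, and none reversed, leaving out the single analyses and the threshold of 0.05, under which no call can be lost. Over all genes, the calls for -4 wkpp over HE 1 wkpp went from 190 to 1736 on exonic reads alone, 1058 at a threshold of 0.05, 1081 in 1 fit on all 15 libraries, 66 without the low-count filter, and 0 to 227 when 1 library was left out. Those for -4 wkpp over LE 1 wkpp went from 4 to 53 on exonic reads alone, 58 at a threshold of 0.05, 10 without weights, 0 with scaling by total reads, 23 in 1 fit on all 15 libraries and 0 to 84 when 1 library was left out. For LE over HE they went from 0 at 1 wkpp to 252 on exonic reads alone, 94 at a threshold of 0.05, 320 in 1 fit on all 15 libraries and 449 without the first HE library, and at 16 wkpp from 372 to 1068 on exonic reads alone, 1348 at a threshold of 0.05, 34 to 111 when 1 library was left out and 0 without the HE libraries under 3 M exonic reads. Scaling by total reads moved the whole gene log2 fold changes by -0.15 for -4 wkpp over HE 1 wkpp and for LE over HE at 1 wkpp and by 0.12 for HE 1 over 16 wkpp, and the others by less than 0.1. Alternatives were not run for the intronic reads. The number of exonic reads limits what can be seen of THRSP and ACACB, which had as few as 69 and 34 in a library of HE 1 wkpp. ACACB had fewer still outside HE, down to 15 at -4 wkpp, 19 in LE 1 wkpp and 22 in LE 16 wkpp. No paired analysis was possible because the labels do not say which libraries come from the same cow and the recovered libraries carry no replicate number.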
